A study of Drosophila melanogaster with 6 samples.

Results

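Arc1 and 7 other genes, grouped here under neuronal activity, were followed across 3 groups of fly larval brains: Arc1, Arc2, Hr38, sr, kay, Jra, CrebB and CrebA. The levels of CrebB and CrebA are not taken here as reporters of firing. All 8 genes were taken by CG number. They hold 23 of the 21081 transcripts and 8 of the 14012 genes in the deposited tables. The set was selected on the gene group and on the deposited Arc1 values, with results of these data known. The lower Arc1 value in ablation than in activation had already been seen, so the Arc1 values below are a description and no test of a prediction.

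When a neuron fires, calcium enters and, with cAMP, switches on kinases that act on CREB and other factors already present in the cell. These factors switch on a fast wave of genes, among them AP-1, nuclear receptors of the Hr38 kind and zinc finger factors of the Egr kind, and effector genes such as Arc. In flies, Hr38 and sr are the best known reporters of recent firing, kay (Fos) and Jra (Jun) together form AP-1, and CrebB is known for its part in long-term memory. Arc1 and Arc2 descend from the Gag gene of a retrotransposon, and Arc1 protein forms capsids that carry its own mRNA from motor neurons to muscle at the larval neuromuscular junction.

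RNA of Drosophila melanogaster was taken from brains dissected at the wandering larval stage and pooled, 2 pools in each of 3 groups, and every group carried E347-GAL4, which drives UAS transgenes in the E347 neurons. Ablation larvae had 2 insertions of UAS-ShiDN, a dominant-negative dynamin that blocks vesicle recycling, on the second chromosome and on the X opposite the driver, which was of yw type (pools of 100 and 91 brains). Activation larvae carried UAS-NachBac, a bacterial sodium channel that makes neurons more excitable, on the third chromosome, with a yw X opposite the driver (pools of 100 and 97 brains). Control larvae had the driver over w1118 and no UAS transgene (pools of 100 and 86 brains). All larvae were reared at 25 °C on food with 35 g of yeast per liter. Transgene and X chromosome background cannot be told apart against control. The sources used here do not say which cells E347-GAL4 labels or whether the E347 neurons died, and each pool holds all cells of the brain, so fewer cells of a type and less RNA per cell cannot be told apart.

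Levels are in FPKM, which corrects fragment numbers for the length of the transcript and the size of the library. Each group has 1 value over both pools, so no spread between pools and no depth stands beside them. A gene sum adds the FPKM of the transcripts of a gene. Unless another table is named, ablation and control values come from the table of those groups and activation values from the table of activation and control. The second table that holds a group gave member gene sums that differed by ratios from 0.992 to 1.03. Error is given as the standard error implied by the authors' deposited table, that is its log2 fold change divided by its test statistic. The 95% interval spans 1.96 such errors to either side, which assumes a normal spread. The deposited p-values do not follow from the statistic under that assumption. For Arc2 in ablation over control, the authors' deposited table gave a statistic of -0.10 beside p = 0.502. The intervals are thus a rough guide and need not match the p-values beside them.

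Brain markers were present in every group. The summed level of 8 neuronal markers, such as elav and nSyb, was 440 FPKM in ablation, 375 FPKM in activation and 339 FPKM in control, that of 6 glial markers 859, 611 and 642 FPKM, and that of 5 neuroblast markers 387, 423 and 403 FPKM in the same order. Markers of other tissues differed more. The sum of 7 midgut genes was 1237 FPKM in ablation, 2.82 FPKM in activation and 7.21 FPKM in control, with 0 of them listed at 0 in ablation, 5 in activation (LysD, LysB and the 3 trypsin genes) and 3 in control (Jon74E and 2 trypsin genes). The sum of 6 fat body genes was 407 FPKM in ablation, 44.7 FPKM in activation and 137 FPKM in control, and none of the 6 was listed at 0 in a group. For 6 muscle genes it was 74.4, 31.2 and 62.0 FPKM, for 4 haemocyte genes 19.9, 10.8 and 14.7 FPKM, for 3 ring gland genes 24.7, 25.1 and 42.1 FPKM and for 4 salivary gland genes 156, 64.3 and 247 FPKM in that order of groups. Muscle, haemocyte and salivary gland genes had no member at 0, and among the ring gland genes Akh was listed at 0 in ablation.

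Arc1 (CG12505) was the more abundant of the 2 effector genes. It had 39.5 FPKM in ablation, 105 FPKM in activation and 44.1 FPKM in control, so activation stood apart and the other two groups lay close together. Among genes with at least 1 FPKM it ranked 2746 of 8637 in ablation, 978 of 8633 in activation and 2469 of 8186 in control. In the authors' deposited table the log2 fold change of ablation over activation was -1.44 (implied SE 0.38, interval -2.19 to -0.70, p = 5e-05, q = 0.0163). That is the smallest p in the table, which 38 of 12419 tested transcripts share. For activation over control, the authors' deposited table gave a log2 fold change of 1.29 (implied SE 0.48, interval 0.34 to 2.24, p = 0.00125), with q = 0.640. Only 22 of 11809 tested transcripts had a smaller p, while 1599 had a larger change on the log2(FPKM + 1) scale. For ablation over control, the authors' deposited table gave -0.16 (implied SE 0.61, interval -1.35 to 1.03, p = 0.728). By that rough interval, differences of up to about its limits in either direction were not detectable.

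Arc2 (CG13941), the paralogue of Arc1 and a much weaker gene here, had the same order of groups. It stood at 1.66 FPKM in ablation, 6.56 FPKM in activation and 2.06 FPKM in control. Activation was again the high group, but the authors' deposited table gave Arc2 q = 0.999 for ablation over activation (log2 -2.02, implied SE 1.81, interval -5.58 to 1.53). For activation over control it gave log2 1.71 (implied SE 2.19, q = 0.915 in the authors' deposited table), and for ablation over control log2 -0.31 (implied SE 3.02, q = 0.974). The level of Arc1 was 23.8 times that of Arc2 in ablation, 16.0 times in activation and 21.4 times in control, all per length. Of the pair, only Arc1 passed the threshold, and only for ablation over activation.

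**Figure D1:**
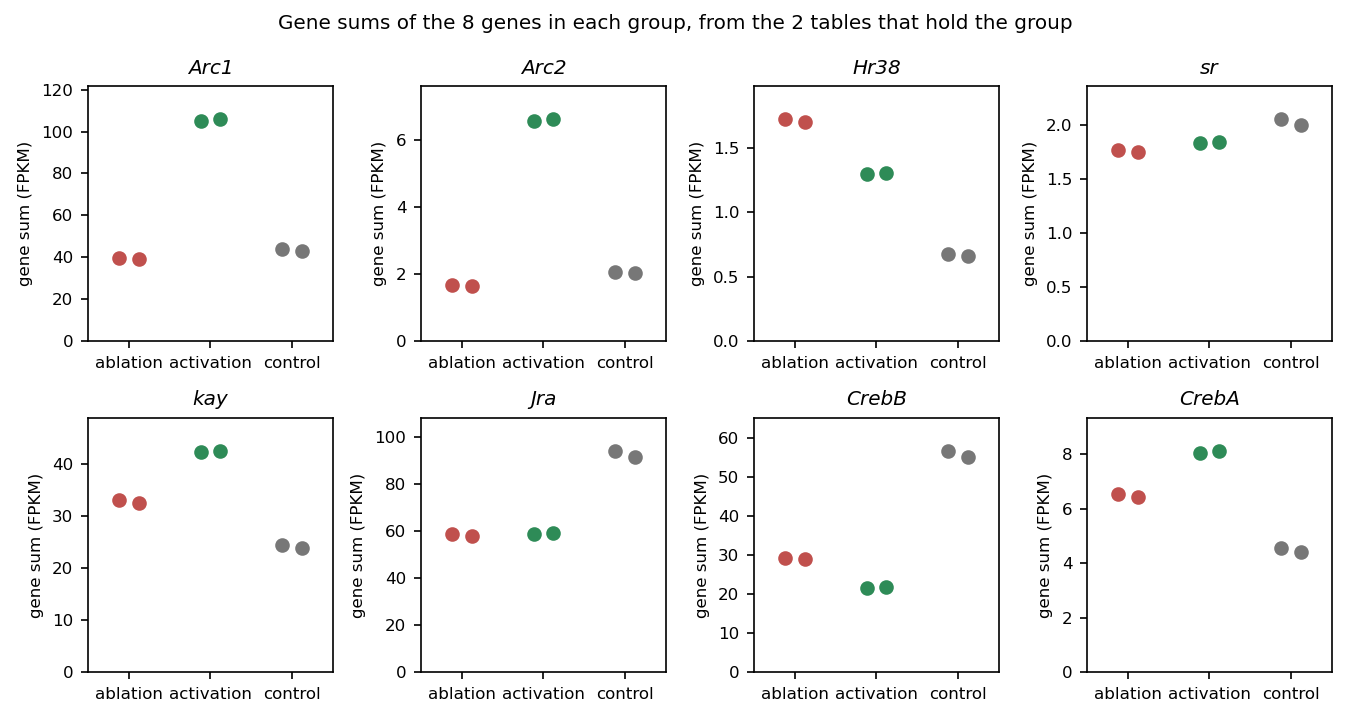
Gene sums in FPKM (vertical axes, each from 0) of the 8 genes in ablation, activation and control, with 1 point for each of the 2 tables that hold the group; the points are not replicates. Arc1 and Arc2 are highest in activation (105 and 6.56 FPKM), while Jra and CrebB are highest in control (94.2 and 56.7 FPKM).

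In the deposited loci (dm3, counted from 1), Arc1 lies on 2R from 10245428 to 10247799 and Arc2 on 2R from 10248809 to 10250330. The second chromosome carried a UAS-ShiDN insertion in ablation larvae, so for Arc1 and Arc2 transgene and linked background cannot be told apart. The same limit holds for Hr38 and Jra, which also lie on the second chromosome. It holds in activation larvae for sr, kay and CrebA, which lie on the third chromosome with UAS-NachBac. The reference annotation (BDGP6.54, used for structure and not for coordinates) puts Arc1 on the minus strand and Arc2 on the plus strand, each with 1 exon, with 762 coding bases in Arc1 and 579 in Arc2, so their starts face each other. CR10102, listed at 0 in every group, has the same deposited locus as Arc2. The positions given here for Arc2, Hr38, Jra and kay are each those of a locus shared with another gene, so they can reach past the member itself. How reads that match both paralogues were assigned is not given in the sources used here.

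Around Arc1, 18 genes lie within 20 kb, of which 8 reached 1 FPKM in a group and 8 were listed at 0 throughout. Among these 8 expressed neighbours Arc2 alone shared the order of groups seen in Arc1. The gene next to Arc1 on its left, CG8617, had 43.7 FPKM in ablation, 43.0 FPKM in activation and 29.8 FPKM in control. Its neighbour CG8613 had 27.8, 16.4 and 14.9 FPKM in the same order, with p = 0.0357 for ablation over activation in the authors' deposited table. Tfb1, a subunit of the general transcription factor TFIIH and the next gene past Arc2, had a sum of 87.5 FPKM in ablation, 59.2 FPKM in activation and 58.6 FPKM in control. Shrm, an actin-binding protein gene, had 5.68, 6.82 and 2.61 FPKM in that order, and Dh44-R1, a receptor of the diuretic hormone Dh44, had 1.97, 2.23 and 1.35 FPKM. CG34184 and CG34442 had 1.83 and 0.758 FPKM in ablation and 1.04 and 1.02 FPKM in activation, and both were listed at 0 in control. CG34184 had p = 0.0476 for ablation over control in the authors' deposited table, and none of the 8 passed at q of at most 0.05.

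**Figure D2:**
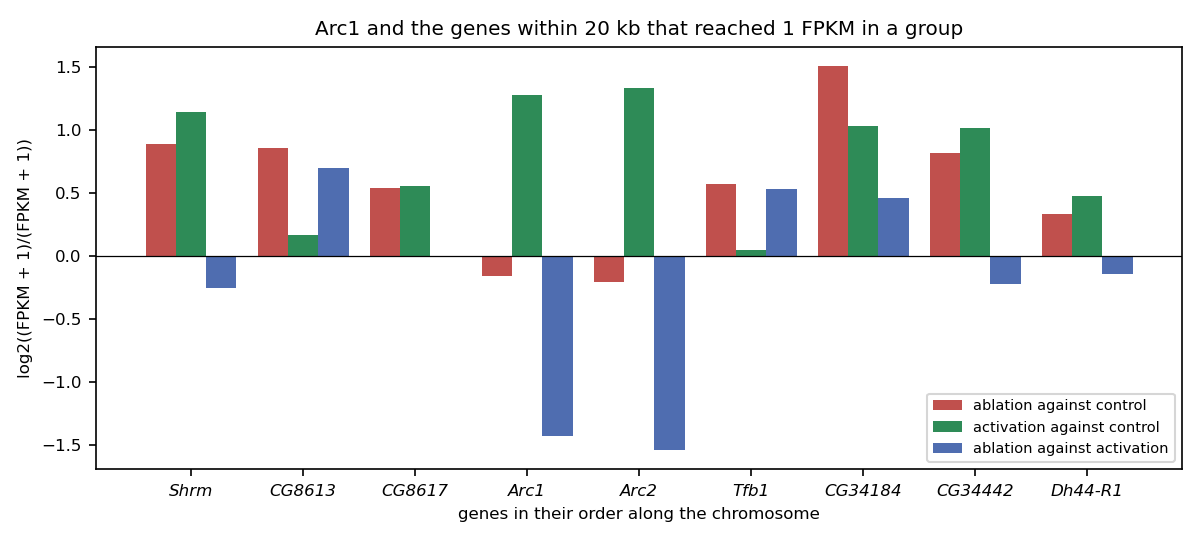
Change of gene sums as log2((FPKM + 1)/(FPKM + 1)) (vertical axis) for Arc1 and the 8 genes within 20 kb that reached 1 FPKM, in their order along the chromosome, with 1 bar per comparison. Arc1 and Arc2 have the lowest values of ablation against activation, -1.42 and -1.54.

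The zinc finger and nuclear receptor genes best known as firing reporters were low in every group. Hr38 (CG1864, 2L from 20682370 to 20714589), the fly NR4A receptor, had a gene sum of 1.72 FPKM in ablation, 1.30 FPKM in activation and 0.674 FPKM in control. Both manipulated groups lay above control, but the tested transcript RC had q = 0.974 for ablation over control and q = 0.915 for activation over control in the authors' deposited table, with implied SEs of 4.06 and 3.70 on the log2 scale. RB, the other Hr38 transcript, went the other way and carried no test. It had 0.353 FPKM in ablation, 0.114 FPKM in activation and 0.422 FPKM in control. The higher sums thus rested on RC, a name that the reference annotation does not hold for Hr38. CG2617 shares the Hr38 locus in the tables and had 19.3 FPKM in ablation, 23.5 FPKM in activation and 13.3 FPKM in control. Whether the libraries kept strand is not given in the sources used here, so reads of overlapping genes may not be separated.

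The Egr-type gene sr (CG7847, stripe, 3R from 13916525 to 13959471), also a tendon cell factor, had 1.77 FPKM in ablation, 1.83 FPKM in activation and 2.05 FPKM in control, all of it in transcript RB. These 3 values lay within a narrow range. Its log2 fold change by the authors' deposited table was -0.21 for ablation over control and -0.13 for activation over control, with intervals from -3.82 to 3.39 and from -3.47 to 3.22. By these rough intervals, a change of several fold in either direction was not detectable at this level.

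The AP-1 genes had unlike orders of groups. Jra (CG2275, 2R from 5983985 to 5987091), the fly Jun, had 59.0 FPKM in ablation, 58.7 FPKM in activation and 94.2 FPKM in control, so both manipulated groups lay below control and next to each other. In the authors' deposited table its log2 fold change was -0.67 for ablation over control (implied SE 0.64, p = 0.203) and -0.64 for activation over control (implied SE 0.58, p = 0.182). These comparisons share the control pools, so the 2 values are not independent. For ablation over activation the authors' deposited table gave -0.02, with an interval from -0.90 to 0.86, the narrowest of the set after Arc1. RpLP0-like, which shares the Jra locus, had 52.1 FPKM in ablation, 60.0 FPKM in activation and 65.5 FPKM in control.

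kay (CG33956, 3R from 25592497 to 25619838), the fly Fos, had a gene sum of 33.0 FPKM in ablation, 42.2 FPKM in activation and 24.4 FPKM in control. Its transcripts did not share that order. RA had 16.2 FPKM in ablation, 13.9 FPKM in activation and 17.6 FPKM in control. RB had 13.2 FPKM in ablation, 23.7 FPKM in activation and 6.85 FPKM in control, or 40.1%, 56.1% and 28.1% of the gene sum. RF had 3.19 FPKM in ablation and 4.12 FPKM in activation and was listed at 0 in control. In the reference annotation the 4 deposited kay transcripts have 4 different starts and 1 common end, so RA and RB differ in their first exons. For ablation over activation, RB had p = 0.0848 (q = 0.999) in the authors' deposited table (log2 -0.87, interval -2.17 to 0.44), the lowest p of a member other than Arc1. For activation over control, RB had log2 1.82 with an interval from -1.97 to 5.61 in the authors' deposited table.

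CrebB (CG6103, X from 18260960 to 18270084), the CREB factor of long-term memory, had a gene sum of 29.3 FPKM in ablation, 21.7 FPKM in activation and 56.7 FPKM in control. The lower sums rested on transcript RK, which had 10.7 FPKM in ablation, 0.000678 FPKM in activation and 44.7 FPKM in control. RF, by contrast, had 18.0 FPKM in ablation, 17.6 FPKM in activation and 9.96 FPKM in control, so its share of the gene sum was 61.4%, 81.1% and 17.6%. RG had 0.00117 FPKM in ablation and 3.18 FPKM in activation and was listed at 0 in control. In the authors' deposited table RK had p = 0.327 for ablation over control, p = 0.222 for activation over control and p = 0.221 for ablation over activation. A transcript near 0 in one group and at 43.4 FPKM in the other thus did not pass. Of the 9 deposited CrebB transcripts, 4 carry a name that the reference annotation still holds (RF, RG, RI and RJ), and RK is not one of them. RF and RG share start and end there, with 2072 spliced bases in RF and 2198 in RG. The CrebB locus is on the X, and the X opposite the driver was yw with a UAS-ShiDN insertion in ablation, yw in activation and w1118 in control.

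CrebA (CG7450, 3L from 15528514 to 15546314), known as a regulator of secretory pathway genes, had a gene sum of 6.52 FPKM in ablation, 8.05 FPKM in activation and 4.54 FPKM in control. Nearly all of it was RA in ablation and control (99.99% and 99.98%), whereas RB made up 63.5% in activation. RA alone had 6.52 FPKM in ablation, 2.94 FPKM in activation and 4.54 FPKM in control, the reverse order for activation. Both transcripts start at the same base in the reference annotation, have 1548 coding bases each and end at different places, with spliced lengths of 3189 bases for RA and 4498 bases for RB. RB had p = 0.195 for activation over control and p = 0.206 for ablation over activation in the authors' deposited table.

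**Figure D3:**
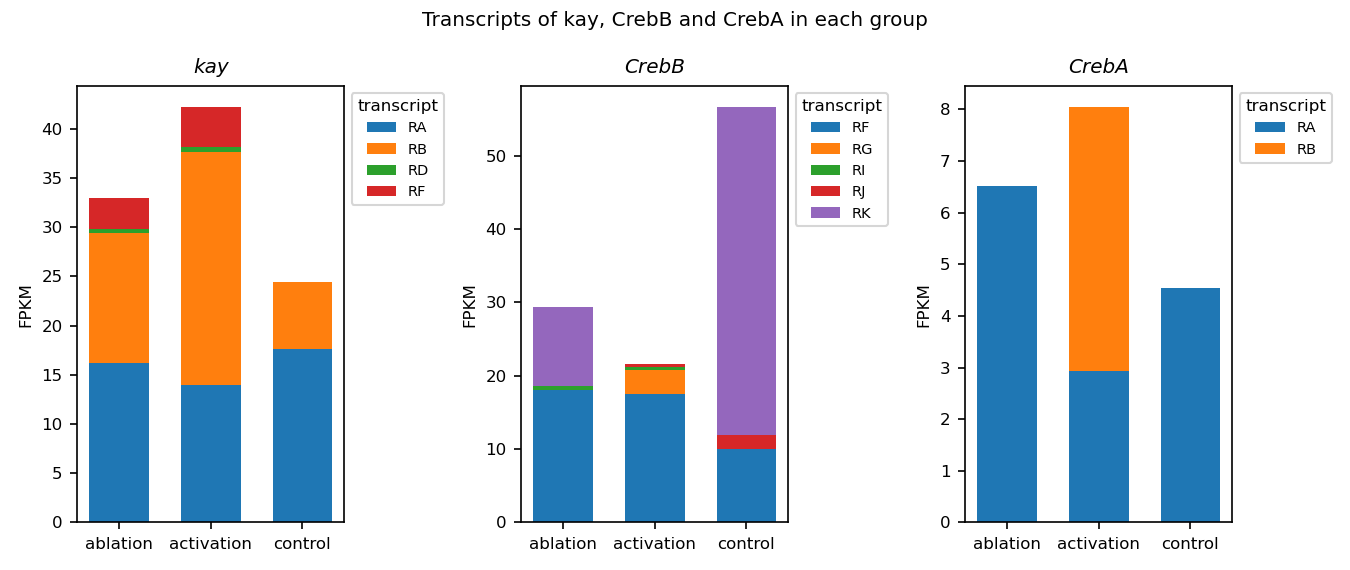
FPKM (vertical axes, from 0) of the kay, CrebB and CrebA transcripts that reached 0.1 FPKM, stacked for ablation, activation and control. kay RB is largest in activation (23.7 FPKM), CrebB RK makes up most of the control bar (44.7 of 56.7 FPKM), and CrebA RB appears in activation alone (5.11 FPKM).

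Across the set, 12 of the 23 member transcripts were tested for ablation over control, 14 for activation over control and 13 for ablation over activation, and each of the 8 genes had at least 1 of them. At q of at most 0.05 Cuffdiff called 0 of 12 for ablation over control, where 0.154% of all tested transcripts passed, 0 of 14 for activation over control, where 0% passed, and 1 of 13, Arc1, for ablation over activation, where 0.37% passed. At an unadjusted p under 0.05 the members gave 0, 1 and 1 calls, Arc1 in both cases, beside 2.05%, 3.05% and 3.21% of all tested transcripts in the authors' deposited tables. The lowest p of any other member was 0.124, 0.127 and 0.0848 in that order of comparisons.

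Gene sums of the 8 members were higher for 3 and lower for 5 in ablation than in control, with a median log2((FPKM + 1)/(FPKM + 1)) of -0.15, against 0.10 over the 8512 genes with a tested transcript. Activation against control gave 5 higher and 3 lower and a median of 0.60, or 0.47 without Arc1, against 0.10 over 8514 genes. Ablation against activation gave 2 higher and 6 lower and a median of -0.17, or -0.05 without Arc1, against 0.01 over 8959 genes. These counts and medians depend on the summing of transcripts. For activation against control, gene sums gave kay 0.80, CrebA 0.74, CrebB -1.31 and Hr38 0.47. The most abundant transcript in place of the sum gave -0.28, -0.46, -5.47 and 0.81, with the other members unchanged. No median was computed with that choice, and no test was made of these medians.

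**Figure D4:**
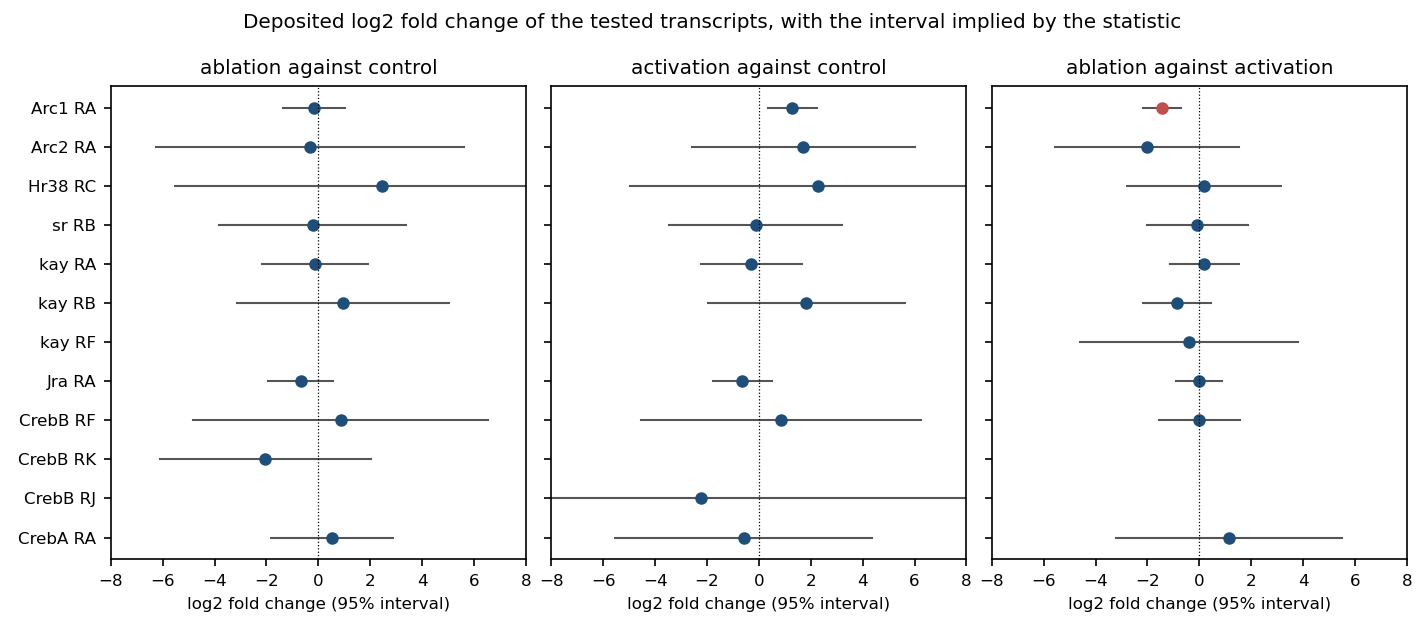
Deposited log2 fold change (horizontal axis) of each tested member transcript that had at least 0.01 FPKM in both groups, with the 95% interval implied by the statistic; intervals past 8 in either direction are cut at the edge. Arc1 excludes 0 in both comparisons with activation, and the red point is its value of -1.44, the 1 called at q of at most 0.05.

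**Figure D5:**
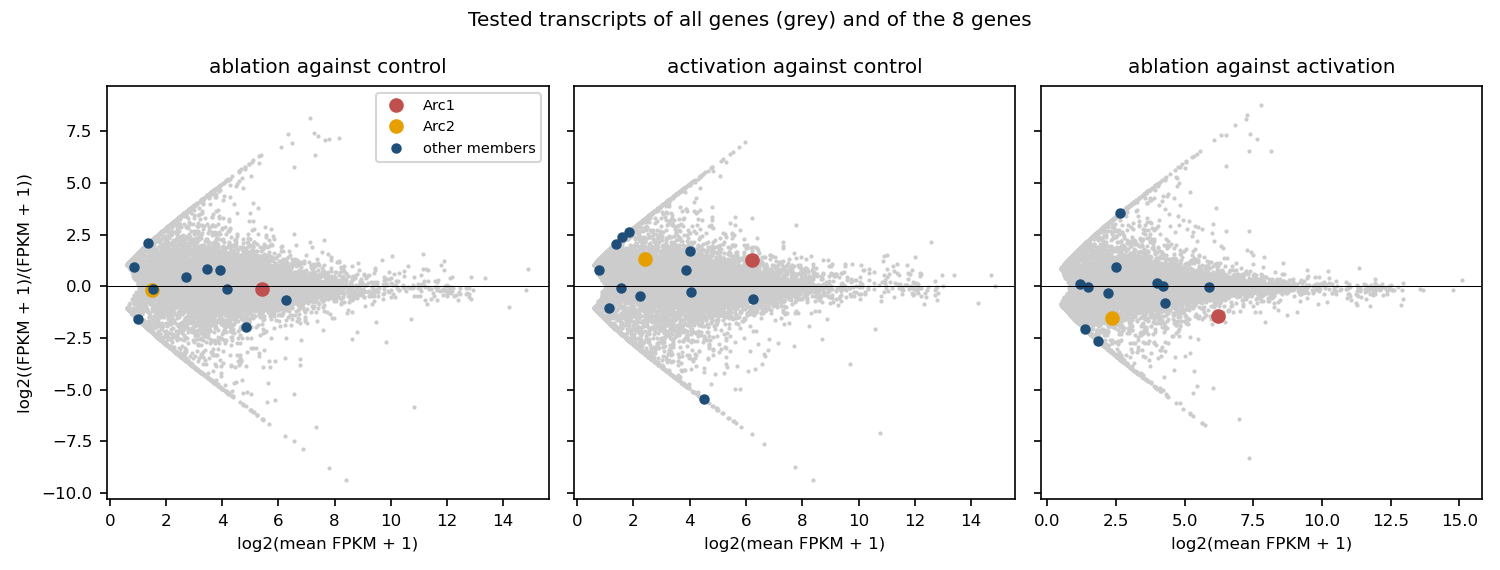
Change, as log2((FPKM + 1)/(FPKM + 1)) (vertical axis), against mean level, as log2(mean FPKM + 1) (horizontal axis), for the tested transcripts of all genes in grey and of the members in colour. Arc1 lies at -1.42 in ablation against activation, with Arc2 at -1.54 and a lower mean level.

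Lists of pathways and families related to these genes held no call, which is near the share over all tested transcripts. Of 97 genes in 5 lists, all found, Cuffdiff called 0 of 178, 178 and 188 tested transcripts for ablation over control, activation over control and ablation over activation. Over all tested transcripts 0.154%, 0% and 0.37% were called. At an unadjusted p under 0.05 there were 1 higher and 5 lower, 2 higher and 4 lower, and 3 higher and 3 lower. That is 3.37%, 3.37% and 3.19% of those tested, against 2.05%, 3.05% and 3.21% of all tested transcripts. By gene sum, 54 of 90 genes with at least 1 FPKM were higher in ablation than in control (60%, against 56.7% of all such genes), 55 of 91 in activation than in control (60.4% against 56.9%) and 47 of 92 in ablation than in activation (51.1% against 51.1%).

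In the list of calcium and cAMP signalling to CREB, 11 of 21 genes were higher in ablation than in control, 10 in activation than in control and 12 in ablation than in activation. Its most abundant genes were Cam, which encodes calmodulin, with 1087 FPKM in ablation, 1094 FPKM in activation and 783 FPKM in control, CaMKII, a calcium-dependent kinase, with 178, 205 and 115 FPKM in the same order, and CanB, the regulatory subunit of calcineurin, with 162, 134 and 137 FPKM. nej, the fly CBP that works with CREB, had 20.8 FPKM in ablation, 17.6 FPKM in activation and 33.2 FPKM in control, where the authors' deposited table gave p = 0.0115 and q = 0.915 for activation over control. rut, the calcium-responsive adenylyl cyclase of memory, had 14.8, 11.2 and 20.2 FPKM in that order (p = 0.0415 for activation over control in the authors' deposited table). Ac13E, another adenylyl cyclase, had transcript RB at 1.67 FPKM in ablation and 9.68e-06 FPKM in control, with q = 0.106 in the authors' deposited table. Pka-R1, a regulatory subunit of protein kinase A, had transcript RF at 22.2 FPKM in ablation and 3.84 FPKM in activation (p = 0.0191 in the authors' deposited table), while its gene sum was 68.5 and 61.4 FPKM.

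Of the ERK and JNK list, 12 of 21 genes were higher in ablation than in control, 13 in activation than in control and 8 in ablation than in activation. puc, the phosphatase that JNK signalling induces and that restrains it, had 32.4 FPKM in ablation, 38.1 FPKM in activation and 62.4 FPKM in control, the same order of control above both as in Jra (p = 0.031 for ablation over control and 0.0811 for activation over control in the authors' deposited table). bsk, the JNK kinase itself, had 147 FPKM in ablation, 184 FPKM in activation and 113 FPKM in control (p = 0.043 for activation over control in the authors' deposited table). The abundant adaptors and switches Ras85D and drk had 148 and 118 FPKM in ablation, 156 and 133 FPKM in activation, and 147 and 93.3 FPKM in control. pnt, an ETS factor of the ERK pathway, had 21.8, 33.9 and 39.8 FPKM by gene sum in that order of groups, and its transcript RB had 6.01 FPKM in ablation and 25.6 FPKM in control (p = 0.0488 in the authors' deposited table). egr, the fly TNF, had gene sums of 47.1, 64.9 and 55.1 FPKM, and its transcript RB had 0.0013 FPKM in activation and 42.0 FPKM in control (p = 0.02355 in the authors' deposited table). Traf4, an adaptor of JNK signalling, had a gene sum of 43.6, 51.8 and 56.0 FPKM, while its transcript RA had 9.77 FPKM in ablation and 44.2 FPKM in activation (the authors' deposited table gave p = 0.00275 and q = 0.351, and p = 0.0288 for ablation over control).

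Other factors of the same families gave few p-values under 0.05, as did the tested transcripts of all genes. Among 11 expressed bZIP genes 8 were higher in ablation than in control, 9 in activation than in control and 6 in ablation than in activation. crc, the fly ATF4, had 639 FPKM in ablation, 711 FPKM in activation and 482 FPKM in control, maf-S had 270, 197 and 194 FPKM, and Xbp1, a factor of the unfolded protein response, had 176, 204 and 221 FPKM. REPTOR-BP, a factor of the TOR pathway, had 131, 90.1 and 61.6 FPKM by gene sum. Its transcript RC had 90.0 FPKM in activation and 0.00395 FPKM in control (p = 0.0103 in the authors' deposited table). For ablation over control RC had 77.6 and 0.00412 FPKM, with p = 0.197 in the authors' deposited table. Of the expressed nuclear receptors 9 of 14 were higher in ablation than in control, 10 of 15 in activation than in control and 8 of 16 in ablation than in activation. Eip75B had 46.3, 59.8 and 48.2 FPKM, usp, the partner with which Hr38 can pair, 36.3, 27.8 and 38.1 FPKM, and tll 41.1, 29.8 and 27.2 FPKM. Hr4 transcript RC had 0.510 FPKM in ablation and 1.87 FPKM in activation (p = 0.0452 in the authors' deposited table).

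In the list of synaptic growth and plasticity, 14 of 23 expressed genes were higher in ablation than in control, 13 in activation than in control and 13 in ablation than in activation. gbb, the BMP ligand that drives growth of the larval neuromuscular junction, had 29.6 FPKM in ablation, 35.6 FPKM in activation and 68.1 FPKM in control (p = 0.0357 for ablation over control and 0.0607 for activation over control in the authors' deposited table). futsch, a microtubule-associated protein of the synapse, had its transcript RC at 16.5 FPKM in ablation and 8.95 FPKM in activation (the authors' deposited table gave p = 0.0028 and q = 0.351), and its transcript RD at 0.00299 FPKM in ablation and 9.20 FPKM in control (p = 0.0478 in the authors' deposited table). hiw, a ubiquitin ligase that limits synaptic growth, had 16.1, 10.1 and 17.7 FPKM in ablation, activation and control (p = 0.03195 for activation over control and 0.03185 for ablation over activation in the authors' deposited table). The abundant members Appl, Syt4 and Fas2 had 160, 136 and 79.1 FPKM in ablation, 141, 126 and 74.7 FPKM in activation, and 165, 122 and 66.9 FPKM in control.

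The marker sums of the other tissues did not have the order of groups seen in Arc1. The midgut, fat body, muscle, haemocyte and salivary gland sums were each lowest in activation, where Arc1 was highest. The ring gland sum was 24.7 FPKM in ablation, 25.1 FPKM in activation and 42.1 FPKM in control. Single markers did not all follow the sum of their list, and Sgs5 was highest in activation (6.76 FPKM). Between ablation and control the midgut sum was 1237 and 7.21 FPKM and the fat body sum 407 and 137 FPKM, while Arc1 was 39.5 and 44.1 FPKM. Among the brain markers, the neuroblast sum did have the Arc1 order, with 387 FPKM in ablation, 423 FPKM in activation and 403 FPKM in control. In that list dpn, wor, ase and mira were highest in activation and pros in control. The neuronal and glial sums had other orders. The part of other tissues and of neuroblasts in the Arc1 difference was not tested.

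By its pair of changes, activation against control and ablation against control, 5 of 6822 other genes with at least 10 FPKM in a group lay nearest to Arc1. The distance is Euclidean on the log2((FPKM + 1)/(FPKM + 1)) scale over 3 group values that share the control. CG41128 was nearest (distance 0.04), with 232 FPKM in ablation, 603 FPKM in activation and 253 FPKM in control. Then came mRpL53, a mitochondrial ribosomal protein gene, with 3.02, 10.2 and 3.59 FPKM, CG34148 with 8.29, 22.4 and 8.12 FPKM, CG5002 with 4.34, 10.1 and 4.37 FPKM, and Hsp22, a small heat shock protein gene that Cuffdiff left untested for low data, with 489, 1246 and 620 FPKM. The 4 tested ones had p from 0.0517 to 0.704 for ablation over activation in the authors' deposited table, so their resemblance to Arc1 rests on group values alone. mRpL53, CG34148 and CG5002 reached 10 FPKM in activation only. The filter thus kept them through the group where they were high, which favours a pattern like that of Arc1.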

How the data were processed

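The authors deposited 3 Cuffdiff tables (ablation with control, activation with control, and activation with ablation), made with TopHat2, Cufflinks and Cuffdiff on dm3 per the submitters' processing notes. The sources used here name no versions, options or annotation. The tables call the activation group induction. They hold deposited FPKM values, 1 per group and transcript, and the authors' log2 fold change, test score, p-value and q-value. Pools are not shown to be separate crosses, so p-values may measure technical spread alone. Depth is unknown, so no counting interval or floor was given.

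Calls are the deposited q of at most 0.05. Recomputed Benjamini-Hochberg values differed by at most 5.15e-07. Gene sums and log2 changes (pseudocount 1 FPKM) were computed from each comparison's own table, and no test of samples was possible. Of 14012 CG numbers 12914 matched a locus tag of the reference annotation, which is of another build and gave names and structure only. Members and lists were chosen with earlier results of these data known. Named genes are the members, list genes with p under 0.05 or among the 3 highest of a list, genes within 20 kb of Arc1 and the 5 nearest patterns. Of 50 tissue markers 49 were found. The adjustment was tested on simulated data. Computations used Python 3.11.15, numpy 2.4.6, pandas 2.3.3 and matplotlib 3.10.9. Alternatives were other q thresholds, filters, pseudocounts, centring and transcript choices.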

Additional observations from a re-analysis of the deposited data

How the results depend on the processing

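No paired analysis was possible because the tables hold 1 value per group and no value per replicate, and for the same reason no replicate could be left out. Of 144 alternative values 135 stayed near the reported one. For a log2 change this means that the fold change it stands for moved by less than 1.5 times. Some small changes turned sign within that limit. A count of calls had to be equal or within 1.5 times, and most counts were 0 in both. The Arc1 change ran from -1.44 to -1.34 for ablation against activation and from 1.17 to 1.29 for activation against control. Its sign held under all 15 alternatives, but most of them could not turn it. A pseudocount leaves the sign as it is, and with 1 Arc1 transcript the transcript choice returned the same value. Values from the other tables come from the same pools. At q of at most 0.01 no member was called for ablation against activation (0 in place of 1, since the smallest q in that table is 0.0163). With a pseudocount of 5, Arc2 was 0.72 for activation against control and -0.81 for ablation against activation. With the most abundant transcript in place of the gene sum, CrebB was -1.96 for ablation against control, -5.47 for activation against control and 3.54 for ablation against activation. kay was then -0.28 for activation against control, and CrebA was -0.46 for activation against control and 0.91 for ablation against activation. This setting turned the sign of kay in all 3 comparisons and of CrebA in both with activation, since their transcripts do not share 1 direction. Jra changed sign for ablation against activation with values from the other tables (0.01). Depth and replicate values are not in these tables, so their effect could not be weighed.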
